A study of Mus musculus with 21 samples.

Results

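This account concerns 6 noncoding RNA genes at which p53 was mapped in mouse cells: the long noncoding RNA genes Neat1 and Pvt1, the microRNA genes Mir34a, Mir34b and Mir34c, and the small nucleolar RNA gene Snora9. All but Snora9 are among the 49980 genes that the RefSeq table places on a chromosome, and Snora9 was placed by the name that the deposited annotation gives to a peak. A peak was taken as belonging to a gene where the deposited annotation names that gene or where the peak lies within 5 kb of it on mm10. By this rule the 6 genes held 9 of the 6811 peaks called in wild-type cells, 5 of the 2127 peaks that the depositors list as specific to wild type, and 7 of the 9784 peaks called in knockout cells. The genes were chosen by the presence and labels of peaks in these lists, so their peaks are a description and carry no test. The 5 kb limit left out one peak of interest: the farthest WT peak inside it was 4573 bp from its gene (Neat1), and the nearest WT peaks outside it were 9.12 kb from Pvt1 and 18.7 kb from Mir34a.

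The cells were ID8, an immortalised and untreated epithelial line from the ovarian surface of C57BL/6 mice. Wild-type (WT) cells were Trp53+/+ and knockout (KO) cells Trp53-/-, that is, without a working gene for p53. The labels do not say whether the KO cells are a single clone, and peak lists hold no expression by which the cell type could be checked. Both were profiled with an antibody to p53 by CUT&RUN, which releases the DNA next to an antibody-bound protein by cutting it with a tethered nuclease. Each genotype had 2 samples but 1 list of peaks, and each list gives positions without heights. No value below therefore has a replicate behind it, and read depth is unknown. Trp53 itself had 1 WT peak and 0 KO peaks within 5 kb. The KO list holds what the same antibody gave without p53 and is the background for every count below.

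p53 is a transcription factor that stress stabilises, and it acts mostly by raising the transcription of genes beside its binding sites. Several of its targets are not translated. The miR-34 microRNAs, which pair with messenger RNAs through a short seed and lower the output of cell cycle and survival genes, are the best known. Neat1 RNA builds paraspeckles, nuclear bodies that hold RNA-binding proteins, and is induced by p53. Pvt1 lies beside the oncogene Myc, and a p53-induced isoform of Pvt1 in mouse is known to lower Myc expression. Snora9 belongs to the box H/ACA class of small nucleolar RNAs, which guide pseudouridylation of other RNAs and are cut from the introns of host genes, in this case Snhg15.

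The mature miR-34 sequences are shown because the microRNA genes lie at 2 separate loci while their products share seeds. The sequences are from RefSeq (GRCm38.p6), written 5′ to 3′ with the seed, bases 2 to 8, in capitals.
mmu-miR-34a-5p: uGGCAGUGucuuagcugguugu
mmu-miR-34b-5p: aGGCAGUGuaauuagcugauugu
mmu-miR-449a-5p: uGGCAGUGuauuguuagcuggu
mmu-miR-449c-5p: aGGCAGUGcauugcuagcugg
mmu-miR-34b-3p: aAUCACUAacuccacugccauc
mmu-miR-34c-3p: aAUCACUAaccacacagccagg
mmu-miR-34a-3p: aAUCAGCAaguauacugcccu

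The seed GGCAGUG is shared by miR-34a-5p and miR-34b-5p. It is carried by 4 of the 1738 mature sequences examined, the others being miR-449a-5p and miR-449c-5p. The mature miR-34c-5p was not analysed here and is not in these counts. Outside the seed, miR-34a-5p and miR-34b-5p differ: 11 of 22 positions counted from the 5′ end are identical, 7 of them the seed. On the other arm, miR-34b-3p and miR-34c-3p share the seed AUCACUA, carried by 2 of the 1738, and match at 17 of 22 positions. The seed of miR-34a-3p matches that of miR-34b-3p at 5 of 7 positions. The hairpin of Mir34a is at chr4:150068454-150068555 on the plus strand. Those of Mir34b, chr9:51103562-51103645, and Mir34c, chr9:51103034-51103110, are on the minus strand and 452 bp apart. Their hairpins follow, with the letters GGCAGUG in capitals, because a single p53 peak stands in front of both. The letters begin at position 15 of the Mir34b hairpin and at position 14 of the Mir34c hairpin.
Mir34b: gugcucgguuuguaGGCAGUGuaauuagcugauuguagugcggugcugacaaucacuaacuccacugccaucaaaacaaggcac
Mir34c: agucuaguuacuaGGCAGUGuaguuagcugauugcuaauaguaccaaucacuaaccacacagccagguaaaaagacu

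A WT-specific peak was found for 5 of the 6 genes, where 3.32% of all genes have one within 5 kb, and a WT peak for the same 5 genes, against 9.05% of all genes. These shares are given as background only, since the genes were chosen for their peaks. A KO peak was found for 1 of the 6, against 11.4% of all genes, and that gene was Pvt1. Neat1 had 4 WT peaks, 2 of them WT-specific, and 0 KO peaks. Pvt1 had 3 WT peaks, 1 of them WT-specific, and 7 KO peaks. Mir34b and Mir34c shared 1 WT peak, which was WT-specific, and had 0 KO peaks. Snora9 also had 1 WT peak, WT-specific, and 0 KO peaks. Mir34a had 0 peaks in any of the 3 lists within 5 kb. Of the 9 WT peaks, 5 were thus WT-specific, 2 overlapped a KO peak, and 2, both at Neat1, overlapped no KO peak and were still absent from the WT-specific list. The whole lists hold 6811 WT peaks, 2127 WT-specific peaks and 4068 pairs of overlapping WT and KO peaks. Even added together, the last 2 counts fall short of all WT peaks, so peaks of the last kind occur elsewhere too. Their share was not counted, since a peak can be in several pairs and 71 WT-specific peaks overlap a KO peak.

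The peaks were of very unequal width. The 5 WT-specific peaks measured 2568 bp at Snora9, 2424 and 201 bp at Neat1, 829 bp at Pvt1 and 725 bp at Mir34b and Mir34c, with a median of 829 bp. The median over all 2127 WT-specific peaks was 454 bp, and 4 of the 5 were wider than that. The Snora9 peak was the 3rd widest of the WT-specific list and the wide Neat1 peak the 6th, whereas the narrow Neat1 peak was narrower than all but 4.18% of the list. The lists give no peak heights, so a wide peak cannot be read as more p53 bound.

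**Figure D1:**
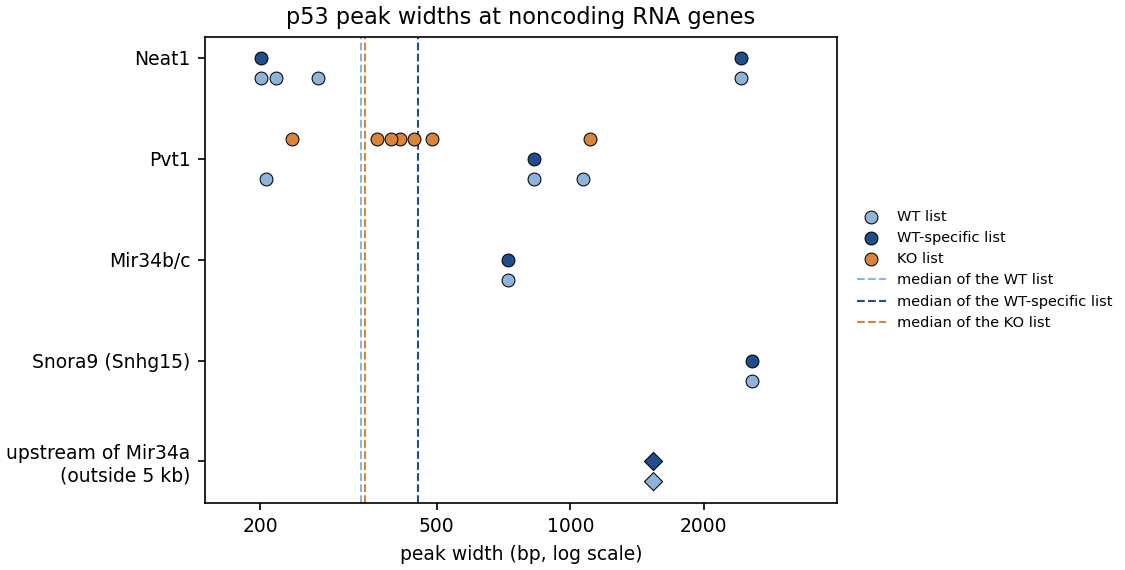
Widths in bp, on a log axis, of the p53 antibody peaks within 5 kb of the noncoding RNA genes, and of the peak upstream of Mir34a that lies outside 5 kb (diamonds); each point is 1 peak, coloured by list, and dashed lines mark list medians of 338 bp (WT), 454 bp (WT-specific) and 345 bp (KO). The WT-specific peaks at Snora9 and one of those at Neat1 sit at 2568 and 2424 bp, and KO peaks appear at Pvt1 alone.

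At Mir34b and Mir34c, the only peak within 100 kb in any list was the WT-specific one, at positions 51105571 to 51106295 of chromosome 9. The annotation calls it a promoter peak of Mir34b. On the strand of the microRNAs it began 1926 bp and ended 2650 bp upstream of the Mir34b hairpin, and was 2461 to 3185 bp upstream of Mir34c. The peak also lay wholly within the span of Btg4, a gene of the BTG family of antiproliferative proteins. It covered 264 bp at the higher-coordinate end of Hoatz, so the position alone does not assign it to one gene. It stood 9456 bp from the RefSeq promoter window of Btg4 and 3243 bp from that of Hoatz. It overlapped no repeat. The nearest KO peak was 969 kb away. Among 1228 microRNA genes, 6 lay nearer to a WT-specific peak than Mir34b did, and 9 nearer than Mir34c. Both genes were chosen for their peaks, so these ranks follow in part from the choice and are description only. The WT-specific peaks within 5 kb of any microRNA gene numbered 11, with a median width of 426 bp, and the one at Mir34b and Mir34c was the widest of them.

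At Mir34a the picture turned on the 5 kb limit. The nearest WT peak, at positions 150048256 to 150049796 of chromosome 4, was 1541 bp wide and WT-specific, wider than 98.4% of that list. It lay 18.7 to 20.2 kb upstream of the Mir34a hairpin on the hairpin's strand. In mammals the primary transcript of miR-34a is known to begin far upstream of the hairpin. The annotation calls it a promoter peak of RP23-169H13.4, a clone-based name that neither gene table holds. In RefSeq it lay inside the lncRNA gene Gm13067 (positions 150029405 to 150058717), 18.9 kb from its lower-coordinate end and 8.92 kb from the other. A B1F SINE of 53 bp, 5 bp from the edge that faces Mir34a, covered 3.44% of the peak. No KO peak lay within 100 kb of Mir34a, and the KO peak nearest to the upstream peak was 118 kb away. Of the 1228 microRNA genes, 37 lay nearer to a WT-specific peak than Mir34a, and the median distance over all of them was 418 kb. Mir34a too was chosen with these lists known, so its rank is description only. The protein-coding genes on either side of Mir34a, H6pd at 59.4 kb and Gpr157 at 18.9 kb, had 0 peaks within 5 kb. The miR-449 genes of the same seed family had no peak near them: the closest WT-specific peak was 626 kb from Mir449a and 625 kb from Mir449c.

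The peak named after Snora9 lay at positions 6526378 to 6528945 of chromosome 11. It took in 2383 of the 3170 bp of Snhg15, the host gene (RefSeq gene 100041286, positions 6525591 to 6528760, minus strand), or 75.2%, and ran from 185 bp upstream of the Snhg15 start to 2382 bp downstream. One snoRNA gene without a common name, LOC115487884 (positions 6528033 to 6528165), lies inside the peak, 595 bp downstream of that start. The tables do not pair it with the name Snora9. The peak overlapped 1 repeat, an MMERGLN_LTR element of 412 bp on the minus strand (positions 6526893 to 6527304). This end sequence of an endogenous retrovirus covered 16.0% of the peak and lay wholly inside it, 1456 bp downstream of the Snhg15 start. Over the 274 WT-specific peaks with an MMERGLN_LTR, the median share covered by repeats was 71.4%. The peak was the widest of 7 WT-specific peaks within 5 kb of a snoRNA gene and the 2nd widest of 424 within 5 kb of a lncRNA gene. The flanking genes Myo1g, at 5.42 kb from the peak, Gm24000, a pseudogene at 17.2 kb, and Ccm2, at 17.9 kb, had 0 peaks within 5 kb. The nearest KO peak was 111 kb away.

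The RefSeq promoter window of Snhg15 is shown because it is the only one that a WT-specific peak of the 6 genes touches. It spans chr11:6528711-6529010 (GRCm38.p6, minus strand), 250 bases before the start to 50 after it, and 235 of its 300 bases, those at its 3′ end, lie in the peak. It is written 5′ to 3′ with every TGACGTCA, CACGTG and CATG in capitals.
Snhg15 promoter: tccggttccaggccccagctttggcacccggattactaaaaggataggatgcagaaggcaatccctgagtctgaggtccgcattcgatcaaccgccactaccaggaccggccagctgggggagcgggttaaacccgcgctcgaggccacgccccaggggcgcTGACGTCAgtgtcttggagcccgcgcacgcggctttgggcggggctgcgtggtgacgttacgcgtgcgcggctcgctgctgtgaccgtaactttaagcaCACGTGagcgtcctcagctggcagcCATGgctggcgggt

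The window held no full match to the 10-letter p53 half-site consensus, which 8.36% of the 32851 promoter windows hold. Its best stretch matched 9 of the 10 letters, which 70.0% of windows do or exceed. That stretch begins at position 56 of the window and lies wholly outside the peak. CATG, the letters most often at the centre of a p53 half-site, occurred once, 36 bases past the start, and is in 61.1% of windows. The E-box CACGTG, bound by Myc among others, occurred 11 bases past the start and is in 7.15% of windows. The cyclic AMP response element TGACGTCA occurred at position -88 from the start and is in 1.79%. The last 2 motifs were picked after the sequence was seen. All 4 motifs read the same on both strands, and a half-site can contain CATG, though no matches overlap here. A match is not a measured site, and the rest of the peak, inside Snhg15, was not searched.

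**Figure D2:**
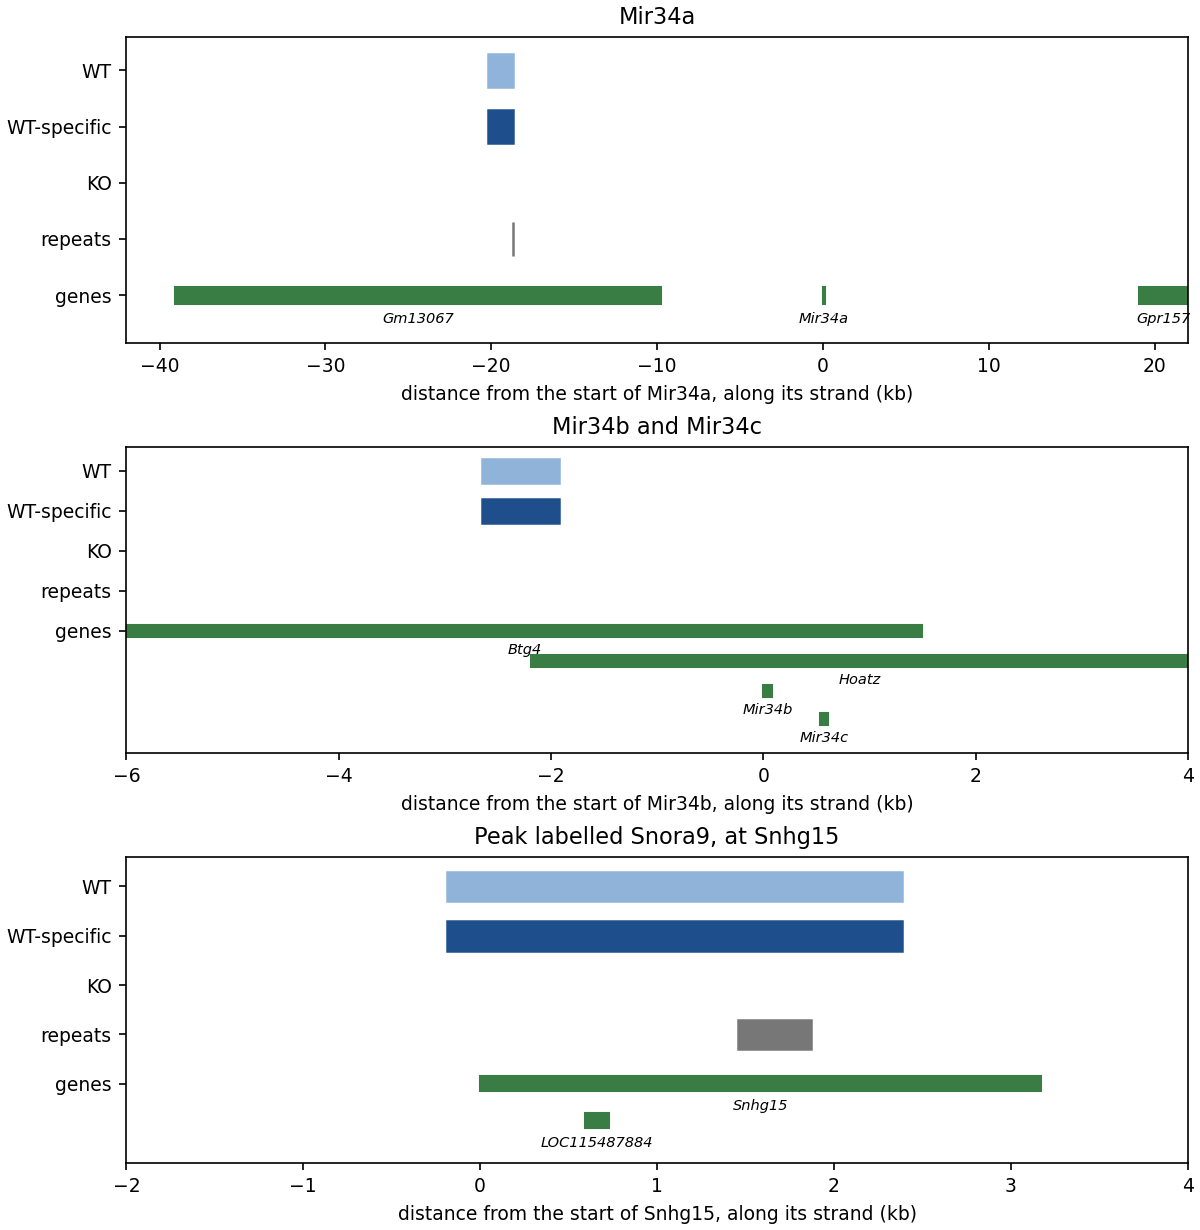
Maps of the peaks near Mir34a (top), Mir34b and Mir34c (middle) and Snhg15 (bottom); the horizontal axis is distance in kb from the gene start along its strand, so negative values are upstream, and rows give the WT, WT-specific and KO lists, the repeats listed for these WT-specific peaks, and RefSeq gene spans (outlines thicken the narrowest features). Each panel holds 1 WT peak, also WT-specific, and no KO peak, at 18.7 to 20.2 kb upstream of Mir34a, 1926 to 2650 bp upstream of Mir34b, and across the start of Snhg15.

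Neat1 (RefSeq gene 66961, chromosome 19, positions 5824708 to 5845480) held 3 WT peaks inside its span of 20773 bp, and a 4th lay 4.57 kb beyond its higher-coordinate end. The widest ran from 5837459 to 5839882, 2424 bp, and was WT-specific. It began 12.8 kb from the lower-coordinate end of the gene and ended 5.60 kb from the other. The other WT-specific peak, 201 bp at 5832174 to 5832374, began 7.47 kb from the lower-coordinate end. Both carry the class 5′ UTR in the annotation, although Neat1 is not translated and both lie kilobases from either end of the RefSeq span. The remaining 2 were a peak of 269 bp at 5841929 to 5842197, inside the gene, and 1 of 217 bp at 5850053 to 5850269, between Neat1 and Frmd8. Their nearest KO peaks were 42.3 and 50.4 kb away, and neither is in the WT-specific list. Each was wider than the 201 bp peak that the list includes.

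Repeats covered 25.7% of the wide Neat1 peak, 623 bp in 4 pieces: 2 pieces of an L1M3 LINE (183 and 139 bp) on either side of an RSINE1 SINE of 178 bp, and an L1MB2 LINE of 123 bp. The L1M3 and RSINE1 pieces abut one another near the middle of the peak, the RSINE1 midpoint at -113 bp from the peak midpoint. The narrow peak overlapped no repeat. No LTR was listed at either.

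Malat1, the other abundant nuclear lncRNA of this locus, differed from Neat1 in its peaks. Its span ends 22036 bp from Neat1, and within 5 kb of it were 2 WT peaks, 0 WT-specific peaks and 4 KO peaks. The WT peaks measured 348 and 250 bp, and the KO peaks 322, 322, 260 and 198 bp. One WT peak, at 5794040 to 5794387, overlapped a KO peak by 314 bp, and the other stood 250 bp from its nearest KO peak. The KO peak nearest to Neat1, at 25.1 kb, was the only one inside Malat1, the others standing beside its lower-coordinate end. Mascrna, the gene of a small RNA cut from the Malat1 transcript, is within 5 kb of the same 2 WT and 4 KO peaks. On the other side, Frmd8 had a WT-specific peak of 221 bp at its promoter (5875048 to 5875268), 29.6 kb from Neat1 and without a repeat. Its other WT peak within 5 kb was the one of 217 bp between Neat1 and Frmd8. Slc25a45 lies within 5 kb of the Frmd8 promoter peak and had no other. Beyond Malat1, Ltbp3 had 1 WT peak of 219 bp and no WT-specific or KO peak.

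**Figure D3:**
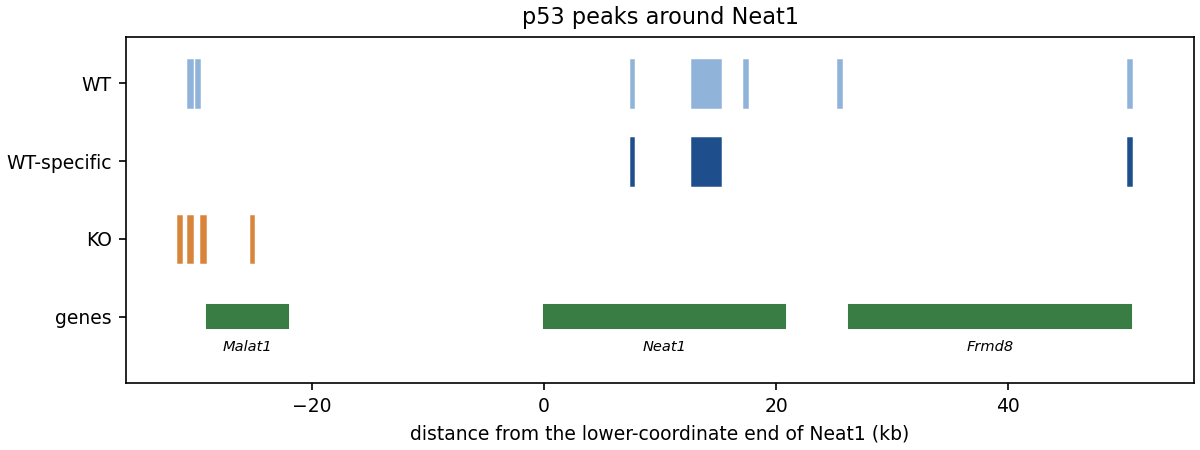
Peaks of the WT, WT-specific and KO lists around Neat1, with RefSeq spans of Malat1, Neat1 and Frmd8; the horizontal axis is distance in kb from the lower-coordinate end of Neat1, and outlines thicken narrow peaks. WT peaks fall at both lncRNA genes, WT-specific peaks at Neat1 and Frmd8, and the 4 KO peaks only at Malat1.

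Pvt1 (RefSeq gene 19296, chromosome 15, positions 62037986 to 62260215) is a long gene of 222230 bp, and it was the one of the 6 with KO peaks. Its WT-specific peak, 829 bp at 62038780 to 62039608, began 794 bp inside the end that faces Myc. The annotation gives it the class 3′ UTR, and 221 kb of the gene lie on its other side. A (TCTG)n simple repeat of 52 bp covered 6.27% of it. A KO peak of 413 bp lay 4.17 kb away, the closest KO peak to any of the 5 WT-specific peaks. That KO peak covered the whole of a WT peak of 206 bp at 62043832 to 62044037. The remaining WT peak, 1066 bp at 62078814 to 62079879, overlapped a KO peak of 1107 bp by 1046 bp. It was the widest WT peak of the gene and was not WT-specific. The other 5 KO peaks, 236 to 488 bp wide, overlapped no WT peak and lay farther into the gene, from 68.5 to 185 kb past the Myc-facing end. Such peaks are ordinary in the KO list, which holds 9784 peaks in all and 4068 pairs of overlapping WT and KO peaks.

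A long gene offers more room for peaks, so genes of at least 200 kb are the closer background for Pvt1. Of 1069 such genes, 44.5% had a KO peak within 5 kb and 4.86% had at least the 7 of Pvt1. A KO peak that overlapped no WT peak was near 35.6% of them, and 4.21% had at least the 5 of Pvt1. A WT-specific peak was near 17.1% of these 1069 genes, and 10.9% had at least the 3 WT peaks of Pvt1. Among the 66 lncRNA genes of that length, 6 had a WT-specific peak, Pvt1 included, and 5 had at least 7 KO peaks.

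Myc, which encodes a transcription factor that drives cell growth, had no WT-specific peak within 5 kb. A WT peak of 240 bp at 61984830 to 61985069 stood 272 bp from the start of the gene (positions 61985341 to 61990361). A KO peak with the same left edge, 609 bp at 61984830 to 61985438, contained it and reached 98 bp into Myc. The signal beside Myc was therefore called in cells with and without p53, and the closest WT-specific peak was the one in Pvt1, 48.4 kb away. Within 100 kb of Pvt1 there were 9 WT peaks, and 8 of them overlapped a KO peak, the WT-specific peak being the exception. In all 8 overlapping pairs the KO peak was the wider, with medians of 278 bp in WT and 542.5 bp in KO. Over the whole lists there were 4068 overlapping pairs for 6811 WT peaks. A WT peak can meet several KO peaks, so the pairs give no exact share of WT peaks to set beside these 8. In the 4068 pairs the KO peak was wider in 72.7%, with medians of 288 and 463 bp. Whether the lists differ in depth was not tested. Macroh2a3, a pseudogene inside Pvt1, had 1 KO peak within 5 kb and 0 WT peaks, and Gm18788, the pseudogene beyond Myc, had none.

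**Figure D4:**
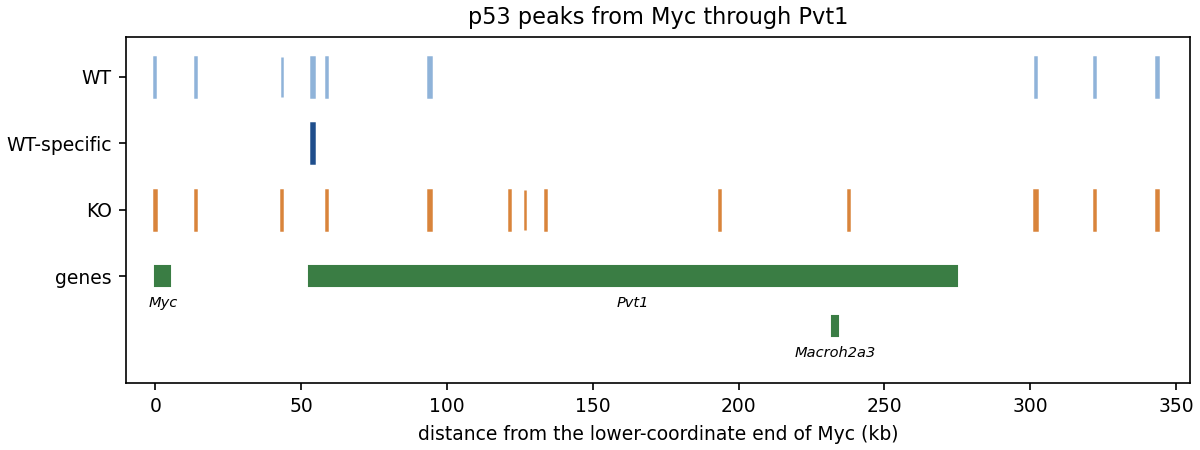
Peaks of the WT, WT-specific and KO lists from Myc through Pvt1, with RefSeq gene spans; the horizontal axis is distance in kb from the lower-coordinate end of Myc, and outlines thicken narrow peaks. Of 9 WT peaks, 8 line up with a KO peak, the WT-specific peak at the Myc-facing end of Pvt1 does not, and 5 KO peaks farther into Pvt1 have no WT counterpart. Over the whole lists there were 4068 overlapping pairs for 6811 WT and 9784 KO peaks, where a peak can belong to several pairs.

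Set side by side, the WT-specific peaks of the 6 genes had few features in common beyond those that chose them. None of the 5 overlapped a KO peak, as 3.34% of all WT-specific peaks do, and their distances to the nearest KO peak were 4.17, 32.6, 37.8, 111 and 969 kb, where the median over all WT-specific peaks was 98.3 kb. By feature class, 2 were promoter peaks, 2 were in a 5′ UTR and 1 in a 3′ UTR, classes that hold 15.2%, 2.26% and 2.68% of the whole list. None was called intronic or intergenic, as 31.6% and 47.2% of the list are, but the rule, which asks for a gene's name or its vicinity, bears on these classes. A repeat was listed for 3 of the 5, against 67.9% of all WT-specific peaks, and the repeats differed in kind: an LTR at Snora9, LINE and SINE pieces at Neat1, and a simple repeat at Pvt1. They covered 6.27 to 25.7% of these 3 peaks, and over all WT-specific peaks with a repeat the median cover was 62.5%.

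Peaks whose name in the annotation matches a noncoding gene were few, but names absent from RefSeq, Snora9 apart, were not counted. RP23-169H13.4, on the peak of 1541 bp inside the lncRNA gene Gm13067, is such a name. Of the 2127, 17 carried the name of Snora9 or of a RefSeq lncRNA, microRNA or snoRNA gene, and 5 of the 17 are those described here. By width the 5 ranked 1st, 2nd, 5th, 6th and 17th among the 17 matched by name. The 3rd and 4th, named after their values were seen, were an intronic peak of 1085 bp at Airn, an imprinted antisense lncRNA, and the promoter peak of 988 bp at Trp53cor1 (lincRNA-p21), a p53-induced lncRNA beside Cdkn1a. Around lncRNA genes more widely, 424 WT-specific peaks lay within 5 kb of one, and there the wide Neat1 peak ranked 4th, the Pvt1 peak 74th and the narrow Neat1 peak 408th.

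Other noncoding RNAs linked to p53 were counted in the same way. A list of 28 such genes from general knowledge, in which Neat1, Pvt1 and the 3 miR-34 genes stand, had 6 genes with a WT-specific peak, 9 with a WT peak and 4 with a KO peak, where the shares of all genes are 3.32%, 9.05% and 11.4%. Outside those 5 genes, which were chosen for their peaks, the list holds 23, of which 2 had a WT-specific peak, 5 a WT peak and 3 a KO peak. The 2 were Snhg15, by the peak named after Snora9, and Trp53cor1. Lncpint, a p53-induced lncRNA, had 3 WT peaks of 193, 530 and 557 bp, and each overlapped a KO peak. Dnm3os had 1 WT peak, which overlapped a KO peak as well. The list's microRNA genes other than Mir34b and Mir34c had no WT-specific peak.

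The partners and targets of these RNAs were examined in the same way. Of 18 textbook targets of miR-34, 2 had a WT-specific peak, 8 a WT peak and 7 a KO peak. Among all protein-coding genes the shares are 4.93%, 13.0% and 16.0%, and no test of the list was made. The 2 were Met, the hepatocyte growth factor receptor gene, with a promoter peak of 253 bp, and Notch1, a receptor gene of cell fate signalling, with a peak of 359 bp that the annotation calls intronic and that lies 2968 bp outside the RefSeq span. Besides its promoter peak, Met had a WT peak of 517 bp that overlapped a KO peak of 445 bp. It also had a WT peak of 202 bp, 19663 bp from the nearest KO peak. Notch1 had another WT peak, of 392 bp, that is not WT-specific and lay 181473 bp from the nearest KO peak. Bcl2, Cd44, Cdk6, Axl and Myc had WT peaks that each overlapped a KO peak, and Jag1, a Notch ligand gene, had a WT peak of 191 bp and no KO peak. Of 12 genes for paraspeckle proteins, the partners of Neat1, 0 had a WT-specific peak, 2 had a WT peak and 3 a KO peak; so short a list could hold none at the protein-coding share of 4.93%. Ewsr1 had a WT peak of 517 bp and a KO peak of 518 bp at nearly the same place, and Pspc1 had a WT peak of 201 bp and a KO peak of 203 bp. Of 16 genes for box H/ACA proteins and snoRNA hosts, Snhg15 was the 1 with a WT-specific peak, the one that led to Snora9 being chosen, where 3.32% of all genes have one. Snhg12 had a WT peak of 200 bp, 94329 bp from the nearest KO peak and not in the WT-specific list.

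Over whole gene classes, peaks near short RNA genes were less frequent in each list. A WT-specific peak lay within 5 kb of 404 of 12727 lncRNA genes (3.17%, 95% exact binomial interval 2.88 to 3.49), 14 of 1228 microRNA genes (1.14%, 0.625 to 1.91) and 8 of 1340 snoRNA genes (0.597%, 0.258 to 1.17). For 21900 protein-coding genes the share was 4.93% (4.64 to 5.22). KO peaks were near 12.2%, 6.76%, 4.33% and 16.0% of these classes in the same order, more than WT-specific peaks in each. The KO list is also the longer, with 9784 peaks against 2127, and the part of list size was not tested. The classes differ in length, with median spans of 17100 bp for protein-coding, 8430 bp for lncRNA, 80 bp for microRNA and 130 bp for snoRNA genes. The part of length in these shares was not tested. The intervals treat genes as independent, which overlapping genes are not, and cover counting error only.

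**Figure D5:**
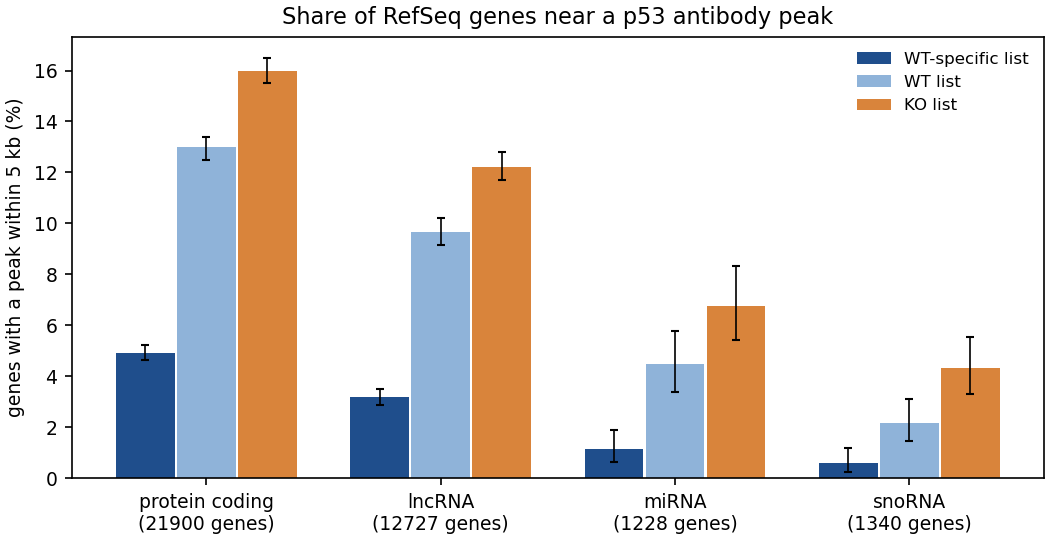
Share of RefSeq genes, in percent, with a peak within 5 kb, by gene class and by peak list; bars start at 0 and error bars are 95% exact binomial intervals over genes. In each class the KO bar is the highest and the WT-specific bar the lowest, from 4.93% WT-specific for protein-coding genes to 0.597% for snoRNA genes. The lists stand in the same order by size, with 9784 (KO), 6811 (WT) and 2127 (WT-specific) peaks.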

How the data were processed

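CUT&RUN with a p53 antibody was done on 2 WT and 2 KO samples of ID8 cells, of 21 samples in the series; the others were not analysed here. The 6 tables used are peak lists on mm10 or annotations of them. Per the file headers they hold a chromosome, a start and an end, and for WT-specific peaks a feature with a gene name and the overlapping repeats. Tools listed in the submitters' processing notes are deepTools, MACS2, Bowtie2 and fastp. Not given in the sources used here are their versions and settings, the rule for WT-specific peaks and the annotation sources. The authors deposited 1 list per genotype, so no test across samples was made.

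Starts were read as 0-based and are printed 1-based. Overlap means at least 1 bp. Gene spans came from RefSeq (GRCm38.p6, the assembly of mm10), without genes on no assembled chromosome; 5 of the 6 genes matched, and Snora9 was placed by its deposited label. RefSeq sequence tables gave 5 mature sequences of the 3 miR-34 genes and 32851 promoter windows. Named genes are the 6 members, listed genes with a WT-specific peak, genes within 100 kb of a member with any peak, Myc, and the nearest genes on either side; others were named after their values were seen. Members and lists were chosen with earlier results of these data known. Interval counting was tested on simulated data against bedtools 2.31.1. Python 3.11.15, numpy 2.4.6, pandas 2.3.3 and scipy 1.17.1 were used. Alternatives covered the window, the longer 50% of each list, the label rule, and the KO and repeat overlap rules.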

Additional observations from a re-analysis of the deposited data

How the results depend on the processing

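The count of genes with a WT-specific peak was 4 with a window of 0 or 1 kb or by deposited name alone, since Mir34c drops out, and 6 at 50 kb, since Mir34a enters. Genes with a WT peak numbered 3 at 0 and 1 kb, where Mir34b and Mir34c are lost because their peak lies upstream. Genes with a KO peak numbered 2 at 50 kb, where Neat1 takes in the Malat1 peaks, and 1 otherwise. The 28-gene list had 11 genes with a WT-specific peak at 50 kb. The share of all genes with a WT-specific peak was 2.15% at 0 kb, 2.43% at 1 kb, 4.31% at 10 kb, 11.9% at 50 kb and 1.73% with the longer 50% of the list. Repeats covered 50% or more of 0 of the 5 WT-specific peaks, and 1 of the 5 had its midpoint in a repeat. The other alternatives stayed within 1.5 times of the values reported, and none of the 5 peaks met a KO peak within 500 bp. Replicates could not be left out, and no paired analysis was possible because each genotype has 1 list for its 2 samples. Depth is unknown, so the absence of a peak is not the absence of binding.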

Other observations

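Promoter windows offer a count that the peak lists alone do not. A WT-specific peak touched 163 of the 32851 RefSeq windows, and 33 of these (20.2%) held a full p53 half-site, where all windows together gave 8.36%. KO peaks touched 1020 windows, of which 83 (8.14%) held one. The E-box CACGTG, picked after the Snhg15 window was read, was in 16.0% of windows touched by a WT-specific peak, 8.14% of those touched by a KO peak and 7.15% of all. The other motif picked from that window, TGACGTCA, was in 4.29% of windows touched by a WT-specific peak, 4.61% of those touched by a KO peak and 1.79% of all. With 1 mismatch allowed, the half-site was in 75.5%, 67.6% and 70.0% of these windows, and CATG in 63.2%, 54.5% and 61.1%. Windows of one gene can overlap, and no test was made. The Snhg15 window is among those with the E-box and without the half-site.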
